A study of Homo sapiens with 54 samples.

Results

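The ZBTB16 locus was examined in T47D cells, a human breast cancer line labelled positive for the oestrogen and progesterone receptors. The locus was the RefSeq span of ZBTB16, chr11:114059711-114256770 (GRCh38), with 100 kb on either side, and its members were all regions of 16 lists of protein binding or histone acetylation that overlapped this window of 397 kb. It held 86 of 520465 deposited regions. The cells had received ethanol vehicle or the synthetic progestin R5020 for 1 h before chromatin immunoprecipitation and sequencing (ChIP-seq). The 8 antibodies were against the progesterone receptor (PR), Maf1 and Brf1 (a repressor and an initiation factor of RNA polymerase III), POLR3A, POLR3C, POLR3G and POLR3GL (subunits of that polymerase), and histone H3 acetylated at lysine 27 (H3K27Ac), a mark of active promoters and enhancers. Each antibody and treatment had 3 libraries and 1 list of regions, so no value has a replicate error, and no comparison of treatments was tested. The locus was selected on regions of these same lists, as a progestin target, with earlier results known, and its members were chosen by position alone. Their counts and values are therefore a description.

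ZBTB16 encodes PLZF, a transcription factor of the BTB zinc finger family. These proteins pair through an amino-terminal BTB domain, bind DNA through carboxy-terminal zinc fingers and mostly recruit corepressors. ZBTB16 is known as a gene induced by ligands of the progesterone and glucocorticoid receptors. Both receptors bind as dimers to a palindromic element with GNACA on its left, 3 bases of any kind in between, and TGTNC on its right. The window also contains NNMT, which encodes nicotinamide N-methyltransferase, at chr11:114257806-114313536. HTR3A, which encodes a subunit of the serotonin-gated ion channel, lies at chr11:113975108-113990313. The long non-coding RNA genes LOC124902760, LOC124902759 and LOC124902761 lie between HTR3A and ZBTB16. The gene table gave no strand or exons for these genes, so the start of ZBTB16 or NNMT means the lowest coordinate of its span, and exonic or intronic position was not analysed here.

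Promoter sequences of 300 bases (250 before and 50 after the strand-aware start that the promoter table itself gives, RefSeq, GRCh38.p14) were available for 3 of the 6 genes of the window, the non-coding ones. The promoter of LOC124902760 is shown because it was the only one of these 3 that a listed region overlapped. It lies on the minus strand at chr11:114018028-114018327, and 144 bp of it were shared with an R5020 PR region. Capitals mark 5-base matches to an arm of the receptor element, GNACA or TGTNC, searched on both strands, since each arm is the reverse complement of the other.
LOC124902760: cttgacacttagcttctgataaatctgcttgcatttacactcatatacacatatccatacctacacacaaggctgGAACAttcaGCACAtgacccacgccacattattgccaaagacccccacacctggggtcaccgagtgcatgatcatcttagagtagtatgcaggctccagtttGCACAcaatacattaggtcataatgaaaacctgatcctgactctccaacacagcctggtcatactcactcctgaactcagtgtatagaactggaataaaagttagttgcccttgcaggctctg
The 3 matches all read GNACA, at bases 76 to 80, 85 to 89 and 178 to 182 counted from the 5′ end. The last of these was inside the PR region, 173 bp from its summit, and the summit itself lay 53 bp outside the promoter window. No full palindrome was present. Of 35116 promoters of the same length, 81.0% held at least 1 arm (median 2), 29.8% held 3 or more, and 0.390% held the palindrome. The number of arms here was therefore one that many promoters reach.

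The identity of the cells was checked by H3K27Ac in the vehicle list within 1 kb of gene starts from the same promoter table. It was found at 8 of 8 genes that mark luminal breast cells, including GATA3, FOXA1, ESR1 and PGR. None of 4 basal or mesenchymal genes (KRT5, KRT14, TP63 and VIM) had it, nor did the leukocyte gene PTPRC. KRT18, KRT19 and KRT14 were checked at either end of the gene. The lists held no read counts, and the depth of the libraries is unknown. The R5020 list was longer than the vehicle list for PR (173129 against 6663 regions on chromosomes 1 to 22, X and Y), Maf1 (22683 against 3049), Brf1 (1173 against 370) and H3K27Ac (112543 against 88870), and the part of list length in the counts below was not tested.

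With R5020 the window gained regions of PR, Maf1, Brf1, POLR3G and H3K27Ac, and most of them fell within ZBTB16 itself. PR regions numbered 2 with vehicle and 34 with R5020. H3K27Ac regions numbered 3 and 31. Maf1 regions numbered 0 and 7, POLR3G regions 0 and 8, and Brf1 regions 0 and 1. POLR3A, POLR3C and POLR3GL, the other polymerase III subunits assayed, had no region in the window in either treatment. The nearest POLR3A region lay 2181 kb from the gene in each list, and the nearest POLR3C region 11806 kb. PR regions covered 0.537 kb of the window with vehicle (0.135%) and 14.05 kb with R5020 (3.54%). H3K27Ac regions covered 0.965 kb (0.243%) and 19.483 kb (4.91%). The increase in H3K27Ac was shared by 63.1% of 20037 protein-coding gene windows built in the same way, a Maf1 region with R5020 by 79.9%, a PR region with vehicle by 50.2% and a Brf1 region with R5020 by 9.62%. A POLR3G region was found in 73.0% of these windows with vehicle and in 68.8% with R5020. Few windows held POLR3A (5.84% with vehicle and 6.38% with R5020), POLR3C (8.82% and 9.11%) or POLR3GL (3.18% and 2.53%), so their absence here was the common state.

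**Figure D1:**
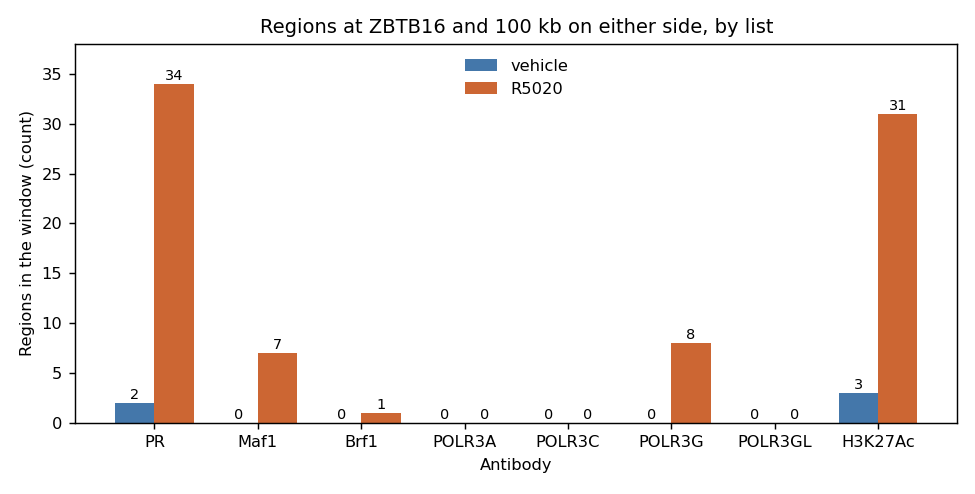
Regions in the ZBTB16 window in each list (vertical axis, count) by antibody (horizontal axis), with 1 bar for vehicle and 1 for R5020; each bar is 1 list, so there is no error bar. PR (2 and 34) and H3K27Ac (3 and 31) account for most regions, and the POLR3A, POLR3C and POLR3GL bars are at 0 in both treatments.

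The R5020 PR regions were spread over the window and were strongest deep inside the gene. Of the 34, 4 lay before ZBTB16, 23 within it and 7 after it. The fold enrichment deposited by the authors, the ratio of signal to the local background of the peak caller, ran from 2.13 to 44.4 with a median of 5.23. Over the whole R5020 PR list the median was 5.90, and 16 of the 34 regions reached it. Neighbouring summits lay 378 to 42324 bp apart, with a median of 5381 bp. The PR region nearest to the start of the gene was small, at chr11:114068370-114068536 with a fold of 4.01 and its summit 8.748 kb into the gene, so no listed PR region touched the start itself.

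The strongest PR region covered chr11:114178570-114180150, with its summit 119.704 kb from the gene start. Its fold was 44.4 and its -log10 q was 388, where q is the authors' p-value adjusted for multiple tests. It ranked 1021 of 173129 by q. The second, chr11:114162675-114164476, had a fold of 43.9, a -log10 q of 377 and rank 1490. These were the only members among the top 1% of the R5020 PR list by q, and they were also the only ones that had been listed with vehicle. The vehicle regions there were narrower, at chr11:114162875-114163161 with a fold of 5.37 and at chr11:114179288-114179537 with a fold of 5.67. Their summits lay 33 and 28 bp from the R5020 summits. In the vehicle list they ranked 1433 and 1498 of 6663 by q, and 77.0% and 79.6% of that list had a lower fold.

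Next to these, chr11:114165122-114166188 had a fold of 28.6 and chr11:114159959-114160642 one of 24.4. The fifth in-gene region by fold, chr11:114180476-114180965, reached 19.8. All 5 lay between 100.248 and 121.254 kb from the start of ZBTB16, within 21.007 kb. Outside that stretch the highest folds in the gene were 10.6 at chr11:114129976-114130236, 10.5 at chr11:114114389-114114678 and 10.4 at chr11:114147663-114148378. The next, chr11:114154426-114154915, had a fold of 9.83. Strong PR regions also lay outside ZBTB16. A region within NNMT, chr11:114308675-114309291, had a fold of 25.6 and a -log10 q of 208, and another, chr11:114278345-114278648, a fold of 12.9. The region over the LOC124902760 promoter, chr11:114017797-114018171, had a fold of 14.2. No region of another antibody overlapped these 3.

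**Figure D2:**
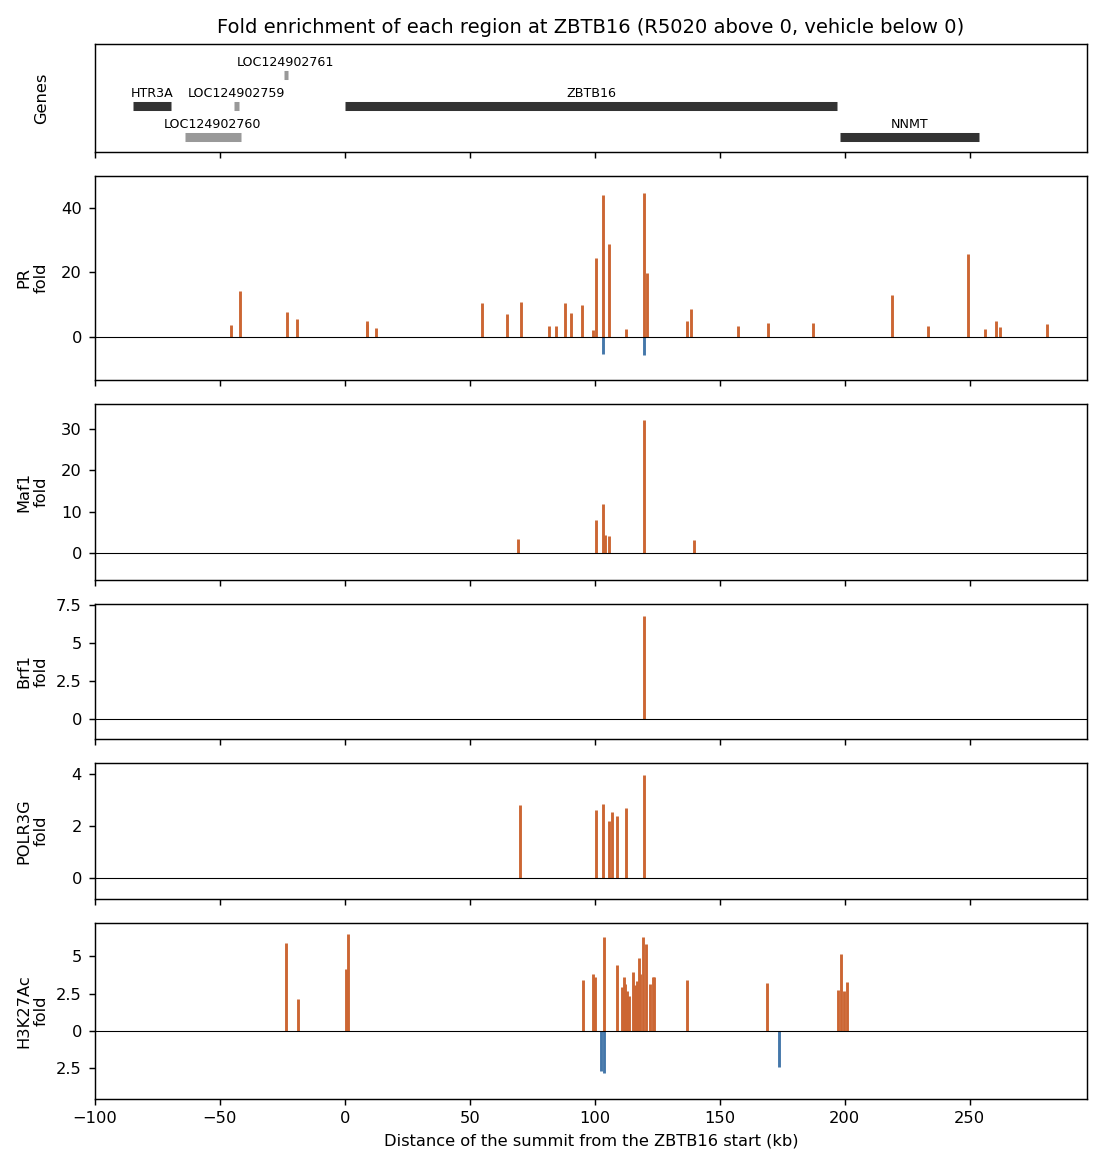
Fold enrichment (vertical axes, ratio) of every region at its summit, by distance from the ZBTB16 start (horizontal axis, kb), with R5020 regions drawn upwards and vehicle regions downwards; gene spans are at the top, dark for protein-coding and pale for non-coding genes. The tallest PR bars (44.4 and 43.9) and the tallest Maf1 bar (32.2) stand between 100 and 121 kb into the gene, while H3K27Ac bars also stand at the starts of ZBTB16 and NNMT.

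Most R5020 PR regions had no vehicle counterpart, 32 of 34, and over the whole list this share was 96.6%. Both vehicle PR regions were kept with R5020, against 91.6% of all vehicle PR regions. H3K27Ac with R5020 overlapped 10 of the 34 PR regions (29.4%), close to the 28.7% of the whole list. The shares lay further apart for acetylation under vehicle, where H3K27Ac overlapped 1 of the 34 (2.94%), against 26.0% of all R5020 PR regions. PR regions with H3K27Ac under R5020 and none under vehicle numbered 9 of 34 (26.5%), against 6.04% overall. These 34 regions are neighbours and not independent, and the differences in share were not tested.

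Maf1 overlapped 4 of the 34 PR regions (11.8%, against 10.2% of the list) and POLR3G 6 (17.6%, against 9.73%). Where the overlap had to take up 50% of both regions, the members with H3K27Ac were 8.82%, those with POLR3G 2.94%, and those with Maf1 or Brf1 numbered 0. The strongest Maf1 region (597 bp) and the Brf1 region (264 bp) lay wholly inside a PR region of 1581 bp, so neither could reach 50% of it. With a -log10 q of at least 5 in both lists the share with POLR3G was 3.45%, and with a fold of at least 5 it was 0. These stricter shares were not taken over the whole list, so they allow no comparison with it. All 4 PR regions with Maf1 also had H3K27Ac and POLR3G. This combination was at 11.8% of the 34 members, against 5.08% of all R5020 PR regions. Over the whole list, 17650 PR regions had Maf1 and 8799 had all 3. Brf1 joined the 3 at 1 member (2.94%), the strongest, and this full set was found at 0.195% of the list. Brf1 alone was at 0.288%. For POLR3A, POLR3C and POLR3GL the members numbered 0, against 0.126%, 0.194% and 0.0676% of the list. The PR regions with Maf1 were the 4 of highest fold in the gene, from 24.4 to 44.4 with a median of 36.3, and the 30 without Maf1 had a median of 4.78. PR regions with H3K27Ac had a median fold of 13.8 (range 2.13 to 44.4), and the 24 without it 4.78 (2.51 to 25.6), so these groups overlapped widely. Such medians were not taken over the whole list, so whether these contrasts are particular to this locus is unknown.

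Maf1, which represses polymerase III transcription by binding the polymerase and its initiation factor, had 7 regions in the window, all with R5020 and all within ZBTB16. None overlapped a vehicle Maf1 region, against 88.5% without one in the whole list. The nearest vehicle Maf1 region was 286 kb from the gene. The strongest member covered chr11:114179127-114179723 with a fold of 32.2 and a -log10 q of 217. By q it ranked 41 of 22683, and 99.9% of the list had a lower fold. The 4 next to it were weaker: 11.8 at chr11:114162818-114163136, 8.08 at chr11:114160021-114160331, 4.44 at chr11:114163902-114164256 and 4.16 at chr11:114165377-114165600. These 5 overlapped both PR and H3K27Ac. The last 2, at chr11:114128920-114129079 (fold 3.38) and chr11:114199200-114199401 (fold 3.24), overlapped no region of any list. Maf1 overlapped PR at 5 of 7 members, against 82.1% of the list, and H3K27Ac at 5 of 7, against 76.5%.

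Summit distances were taken only between overlapping regions, so the widths of the regions limit them. They were not taken over the whole lists. Over 5 overlapping pairs of PR and Maf1 the summits were 14, 14, 17, 50 and 1024 bp apart; the last pair joins the second Maf1 region under the 1802 bp wide PR region. For PR and POLR3G, 6 pairs were 21 to 143 bp apart with a median of 46.5 bp. For H3K27Ac, 11 pairs were 5 to 1959 bp from the PR summit with a median of 319 bp. The H3K27Ac regions were up to 4789 bp wide, against up to 597 bp for Maf1 and 535 bp for POLR3G.

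The Brf1 region lay at chr11:114179294-114179557, 5 bp from the PR summit and 12 bp from the Maf1 summit. Brf1 is a subunit of TFIIIB, which recruits polymerase III to tRNA genes. Its fold was 6.78, its -log10 q was 11.0 and its rank 615 of 1173. Over all R5020 Brf1 regions, 40.4% overlapped PR and 45.8% overlapped Maf1. No POLR3A region of either treatment was in the window. Of 20037 gene windows, 1928 held R5020 Brf1, and 992 of these (4.95% of all windows) had no POLR3A in either treatment. Brf1 without POLR3A was thus common among windows with Brf1. The nearest vehicle Brf1 region lay 4179 kb away. Absence of POLR3A at strong Maf1 regions was not particular to ZBTB16. The strongest Maf1 member and those ranked above it by q numbered 41, a limit set by that member itself. Of them, 41 overlapped PR, 41 H3K27Ac, 30 Brf1 and 0 POLR3A. Over all R5020 Maf1 regions, 82.1% overlapped PR and 76.5% H3K27Ac, and the shares with Brf1 and POLR3A were not counted. The R5020 lists held 1047 POLR3A and 22683 Maf1 regions, so few Maf1 regions of any rank could overlap POLR3A. Of these 41, 20 had no vehicle Maf1 region, against 88.5% of the list.

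POLR3G is a polymerase III subunit of which POLR3GL is the paralogue. Its 8 regions were weak, with folds of 2.17 to 3.94, and all lay within ZBTB16. The strongest, chr11:114179065-114179599, had a -log10 q of 8.17 and ranked 2432 of 46875; it was under the strongest PR, Maf1 and Brf1 regions. The next by q had a fold of 2.85 at chr11:114162888-114163063, 2.81 at chr11:114129881-114130100, 2.69 at chr11:114172178-114172431 and 2.62 at chr11:114160005-114160269, and each of these also overlapped PR. POLR3G overlapped PR at 6 of 8 members, against 36.0% of the list, and H3K27Ac at 6 of 8, against 61.3%. No member overlapped a vehicle POLR3G region, against 43.1% without one in the list. The vehicle list held 58424 regions and the R5020 list 46875, and the part of list length was not tested. The nearest vehicle POLR3G region was 143 kb away. The treatment of 1 of the 3 R5020 POLR3G libraries is given as R5020 in its title and as ethanol in its treatment tag, and its part in these counts was not tested. The same conflict affects 2 POLR3C libraries and 1 POLR3GL library.

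H3K27Ac appeared with R5020 at the start of ZBTB16, inside the gene and at the start of NNMT. At the start of ZBTB16, chr11:114059770-114060295 had a fold of 4.17 and a -log10 q of 6.90. Beside it, chr11:114060559-114061533 had a fold of 6.47, the highest of the 31 members. Neither overlapped a vehicle region, and neither overlapped PR. At the start of NNMT, 4 regions spanned 3.736 kb, of which chr11:114257962-114258352 had the highest fold (5.15). The span of ZBTB16 ends shortly before NNMT, at 114256770, so these regions were also close to that end. The first of them, chr11:114257055-114257370, overlapped neither gene. Over LOC124902761, chr11:114035902-114036703 had a fold of 5.86 and overlapped a PR region. Vehicle H3K27Ac was found at neither end of ZBTB16, NNMT or HTR3A within 1 kb, while 68.0% of protein-coding genes had it at an end. Genes with H3K27Ac at an end with R5020 and not with vehicle made up 3.11% of all (624 of 20037). ZBTB16 and NNMT were among them and HTR3A was not.

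Inside ZBTB16, 20 R5020 H3K27Ac regions with gaps of at most 3 kb formed a chain of 24.903 kb, chr11:114158745-114183647, of which they covered 14.639 kb. The widest, chr11:114161490-114166278, was 4789 bp long with a fold of 6.31, and the regions around the strongest PR summit, chr11:114178360-114179568 and chr11:114179691-114181039, had folds of 6.26 and 5.79. The chain held 7 of the 34 PR regions, but only 6 of its 20 acetylated regions overlapped one. Vehicle H3K27Ac was present at the same place in 2 small regions, chr11:114162387-114162635 (fold 2.70) and chr11:114163235-114163742 (fold 2.83). The third vehicle region, chr11:114233243-114233450 (fold 2.37), was not in the R5020 list. Of the vehicle regions, 2 of 3 were thus kept, against 67.2% of the list. Within the 21.007 kb that hold the 5 strongest in-gene PR regions, a stretch delimited after the values were seen, H3K27Ac covered 3.60% with vehicle and 61.0% with R5020. The same stretch held 6 of the 34 PR, 5 of the 7 Maf1, 7 of the 8 POLR3G and 16 of the 31 H3K27Ac regions.

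**Figure D3:**
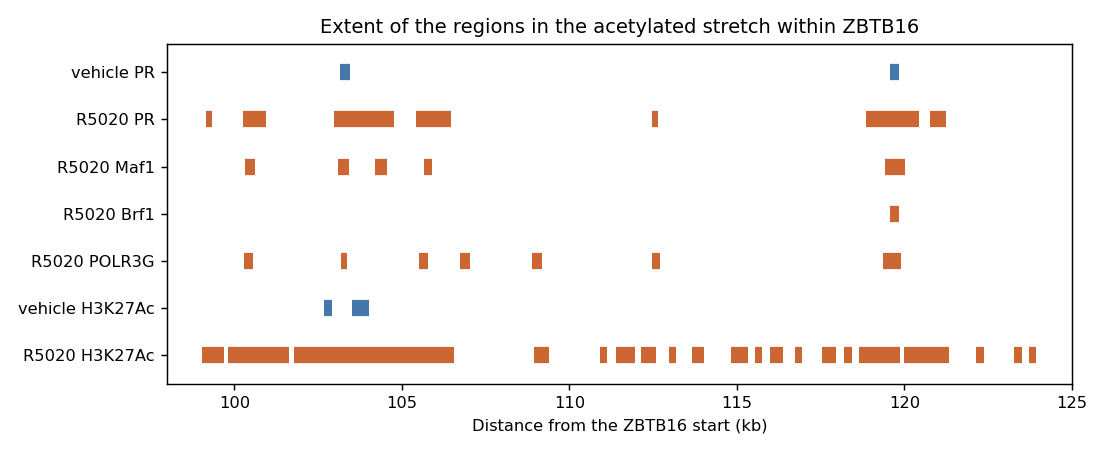
Extent of each region (bars) in 7 lists, by distance from the ZBTB16 start (horizontal axis, kb); lists with no region there are not drawn. H3K27Ac with R5020 runs from 99.034 to 123.936 kb with gaps, the 2 vehicle PR regions lie inside the widest R5020 PR regions, and Maf1 bars stand inside PR bars.

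Of the 31 R5020 H3K27Ac regions, 30 overlapped no vehicle region (96.8%), against 41.7% of the whole list. PR overlapped 9 of the 31, against 36.8% of the list. Those with PR had a median fold of 3.79 and the 22 without PR a median of 3.39, and the highest fold of each group was 6.31 and 6.47. The median over all 31 was 3.58, near the 3.74 of the whole R5020 list.

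Among protein-coding gene windows, that of ZBTB16 was not rich in PR regions for its length. Its 34 R5020 PR regions were more than in 80.7% of 20037 windows, but per 100 kb its 8.56 regions were more than in 50.6%, with a median of 8.48. The difference in H3K27Ac, 28 regions more with R5020, was larger than in 97.9% of windows (rank 361), and per 100 kb it ranked 1800. With vehicle its 3 H3K27Ac regions were more than in only 18.7% of windows (median 11). With R5020 its 31 were more than in 71.3% (median 14). Of 4781 windows with 3 or fewer vehicle H3K27Ac regions, ZBTB16 was the only one with at least 31 with R5020, and the median of these windows was 1; both limits are the values of ZBTB16 itself. This comparison was set up after the values had been seen, and its counts were not adjusted for the length of the windows.

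A list of 18 other genes known to respond to progestins or glucocorticoids was counted in the same windows. All 18 had R5020 PR regions, as did 98.6% of all protein-coding gene windows, from 9 at TNFSF11 to 81 at FKBP5. At least as many as at ZBTB16 were found at 7 of the 18 (3859 of all 20037 windows), and at least its density per 100 kb at 14 (9894 of all). H3K27Ac regions were more numerous with R5020 at 15, fewer at 2 and equal at 1, beside 63.1% of all windows with more. The median difference was 8, against a median of 2 over all genes. None reached the 28 of ZBTB16 (428 of all 20037 windows did), whose window was longer than any of theirs. DUSP1, a phosphatase gene, came nearest, from 23 to 44 regions. Per 100 kb of window DUSP1 gained 10.3 regions and ZBTB16 7.05. DUSP1 was the only 1 of the 18 to reach the ZBTB16 value, beside 1800 of all 20037 windows. FKBP5, the gene of an immunophilin that binds steroid receptor complexes, went from 43 to 59. SGK1, a kinase gene, had 3 in each treatment, like ZBTB16 with vehicle. PDK4, a mitochondrial kinase gene, went from 1 to 6. AREG, an EGF receptor ligand gene, fell by 5 regions and KLF9, a zinc finger factor gene, fell by 3. A Brf1 region with R5020 was found at 4 of the 18, beside 9.62% of all windows: FKBP5, MYC, NFKBIA and PER1. Of these, MYC, the gene of a growth-promoting transcription factor, and NFKBIA, which encodes an inhibitor of NF-kappaB, had no POLR3A region in either treatment, as at ZBTB16. MYC had 1 and 8 Maf1 regions and 0 and 1 Brf1 regions, and NFKBIA had 2 and 7 and 0 and 2. FKBP5 had 4 and 24 Maf1 regions and 1 POLR3A region in each treatment, and PER1, a clock gene, had 6 Brf1 and 6 POLR3A regions in each.

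**Figure D4:**
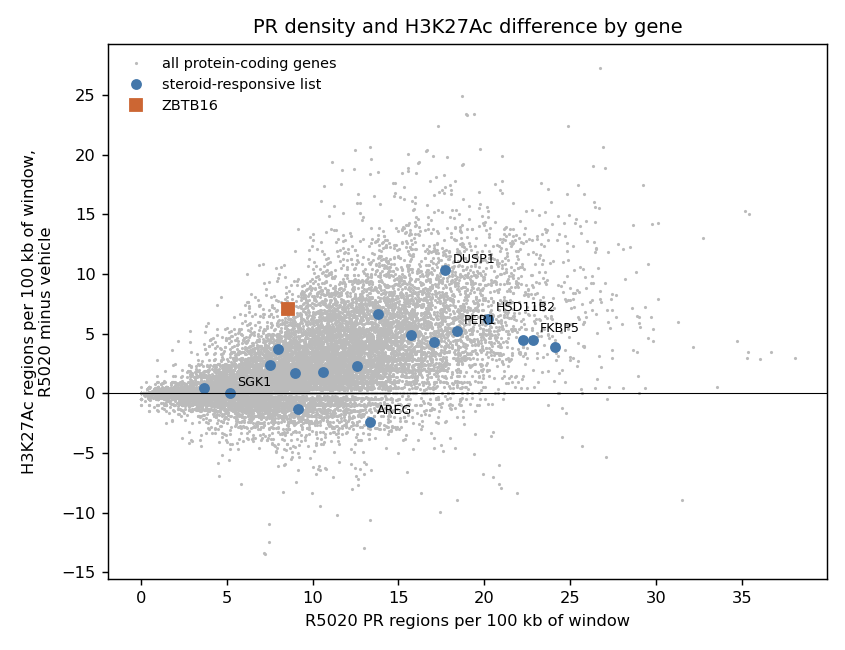
H3K27Ac regions per 100 kb of window, R5020 minus vehicle (vertical axis), against R5020 PR regions per 100 kb (horizontal axis) for 20037 protein-coding genes (grey), the 18 steroid-responsive genes (blue) and ZBTB16 (orange square). ZBTB16 sits at 8.56 PR regions per 100 kb with a difference of 7.05, above 17 of the 18 listed genes; DUSP1 is the exception.

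The other BTB zinc finger genes, which encode relatives of PLZF, numbered 46 by symbol. The symbols include ZBTB8OS, a neighbour of ZBTB8A that encodes no BTB protein. H3K27Ac regions were more numerous with R5020 at 36, fewer at 6 and equal at 4, beside 63.1% of all windows with more. The median difference was 6, with a range from -6 to 41. Only ZBTB38 (31 to 72) and ZBTB46 (70 to 109) exceeded the 28 of ZBTB16, and both had many acetylated regions with vehicle. Of all 20037 windows, 428 had a difference of at least 28. Per 100 kb of window, 3 of the 46 reached at least the difference of ZBTB16 (1800 of all 20037). ZBTB20, a long gene, had 17 PR regions with R5020 but 2 H3K27Ac regions in each treatment. R5020 PR regions numbered at least 34 at 13 of the 46 (3859 of all 20037 windows). Their density per 100 kb was at least that of ZBTB16 at 33 (9894 of all).

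Over all 16 lists, the genes most like ZBTB16 were sought by the Euclidean distance of log2(1 + regions per 100 kb). MYBPC1, which encodes a myosin-binding protein, was nearest at 1.01. It had 2 and 40 PR regions, 0 and 7 Maf1 regions and 4 and 18 H3K27Ac regions. PIGY and PYURF, which overlap each other and share their counts, followed at 1.18, then SPIN1 at 1.27 and IL21 at 1.33. IL21 had 0 and 14 PR regions and 1 and 13 H3K27Ac regions. Of the neighbours in the window, NNMT had 5 and 27 H3K27Ac regions and HTR3A 4 and 11, and both counts include regions of the ZBTB16 window.

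At the edges of the window, the first R5020 PR region inside had a fold of 3.60 and the last inside one of 3.99. The nearest outside had folds of 3.59, at 52.8 kb from the low edge, and 5.00, at 2.05 kb from the high edge. An H3K27Ac region with a fold of 22.0, higher than any member, lay outside the high edge at chr11:114399585-114401217.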

How the data were processed

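Regions bound by 7 proteins or marked by H3K27Ac were read from 16 lists, 1 for each antibody and treatment. Per the submitters' processing notes, the reads were handled with cutadapt, Bowtie2 and MACS2 on hg38, with no versions or settings, and how the 3 libraries of a list were combined is not given in the sources used here. Each region's fold over background (a ratio) and -log10 q-value are those the authors deposited, and both were used only within 1 list. Input libraries have no list. Samples were grouped by title.

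Regions on chromosomes 1 to 22, X and Y overlapped when they shared at least 1 bp. The same counts were taken for 20037 RefSeq protein-coding genes (GRCh38.p14) with 100 kb on either side. Named regions were every vehicle PR, Maf1 and Brf1 member, the 10 R5020 PR members and 5 POLR3G and 5 H3K27Ac members of highest -log10 q, and the region nearest to the gene start; named genes were those of the window, the fixed steroid and BTB lists and the 5 most alike. Other regions and genes were named after their values were seen. The locus and the lists were chosen with earlier results of these data known. Overlap counting was tested on simulated data. Alternatives were a -log10 q or fold of at least 5, sharing of 50% of both regions, a flank of 50 kb and counts per 100 kb. Scripts ran in Python 3.11.15 with scipy 1.17.1, numpy 2.4.6 and, for plots, matplotlib 3.10.9.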

Additional observations from a re-analysis of the deposited data

How the results depend on the processing

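Of 111 alternative values, 89 stayed near the reported value and 22 moved. Many of the 89 were counts or shares of 0 that could not change, since their settings only removed regions or overlaps. R5020 PR regions falling from 34 to 23 in the gene span alone were still counted as near. So were R5020 Maf1 regions falling from 7 to 5 with a -log10 q of at least 5. The tally is therefore not a measure of robustness. With a fold of at least 5 the window kept 17 R5020 PR, 3 Maf1, 0 POLR3G, 0 vehicle H3K27Ac and 6 R5020 H3K27Ac regions. With a -log10 q of at least 5 it kept 1 POLR3G, 0 vehicle H3K27Ac and 14 R5020 H3K27Ac regions. Since 0 vehicle regions were left, it was fixed in advance that all 14 had no vehicle region. For the same reason 0 vehicle regions were without an R5020 one. With overlaps counted only where they took up 50% of both regions, R5020 PR overlapped H3K27Ac at 8.82%, POLR3G at 2.94%, Maf1 at 0 and Brf1 at 0 of its members, and 3 vehicle H3K27Ac regions had no R5020 region. The share with POLR3G was 3.45% with a -log10 q of at least 5 and 0 with a fold of at least 5 in both lists. These filters act by construction, since fewer regions pass, and the stricter shares of PR regions were not taken over the whole list. The percentage of genes with fewer R5020 PR regions than ZBTB16 was 50.6 per 100 kb, 77.5 with a -log10 q of at least 5 and 91.7 with a flank of 50 kb; the cause was not tested. Of 7 alternatives added after seeing the data for the share of the ZBTB16 window's R5020 H3K27Ac regions without a vehicle region, 2 gave 100%: sharing of 50% of both regions, and a -log10 q of at least 5 in both lists with 10 or more R5020 regions. The second 100% was fixed in advance, since that filter left 0 vehicle regions in the window. The filter on the R5020 list alone gave 92.9%. No paired analysis was possible because the lists pool the replicates and carry no replicate number, and for the same reason no replicate could be left out. Depth is unknown.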
